A study of Pomacea canaliculata with 12 samples.

Results

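A set of 48 genes was abundant in the eye stalk and in both kinds of tentacle of the apple snail Pomacea canaliculata and low in its retina. The set was chosen by its measured levels, with 4 conditions applied to all 21131 genes on CPM, the counts of a gene relative to its library's total, scaled with the trimmed mean of M-values (TMM). Each gene had at least 50 CPM in all 9 eye stalk, cephalic tentacle and oral tentacle libraries. Its retina mean was at most 1/16 of the lowest of these 3 tissue means, which is 6.25%. It exceeded 0.3 CPM in at least 1 retina library. Its eye stalk mean lay within 4-fold of the mean of the 6 tentacle libraries. A further 2760 genes met every condition except the low retina level and are called the other abundant genes below. Because these values chose the 48 genes, their low retina level and the closeness of eye stalk and tentacle are described without a test.

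Poly(A) RNA was sequenced from the 2 tentacle types, cephalic and oral, from eye stalks and from extracted retinas, with 3 libraries per tissue and 4 tissues in all. No treatment, genotype, age or sex is given in the labels, nor is it stated whether an eye stalk sample included the eye. Whether the libraries of a tissue came from separate animals is not stated either, so the p-values below measure spread from library to library, part of which may be technical. Retina libraries held 40794864 to 45673871 counts and the other 9 held 10804847 to 21561988, so depth and retina cannot be told apart. Retina replicate 4 stood apart from the other retina libraries. Its counts differed from theirs by a chi-square of 666 and 527 per degree of freedom, against 80.3 between replicates 1 and 3. The retina shares and the counts at an unadjusted p are given with and without it. Tissue labels were not checked against marker genes, because the identifiers carry no gene names or product descriptions in the tables used here.

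The apple snail has a camera-type eye carried on a stalk beside the cephalic tentacle, and the oral tentacles stand on the head near the mouth. In gastropods generally, the retina is built of photoreceptor and pigmented supporting cells. Tentacles and eye stalks are skin-covered appendages with surface epithelium, gland cells, muscle and sensory nerve endings. In bulk RNA, fewer cells of a type and less RNA per cell cannot be told apart. No function is given to any of the 48 genes here, since the tables used carry none.

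The 48 genes took very unequal shares of the RNA. Mean levels over the 9 appendage libraries ran from 72.4 to 6331 CPM, with a median of 216 CPM. Only 3 genes reached a mean of 1000 CPM, and 7 lay under 100 CPM. These levels are shares of a library and are not corrected for transcript length, so they do not rank transcripts per cell. Retina means ran from 1.15 to 33.1 CPM, with a median of 4.32 CPM. Together the genes took 0.027 ± 0.015% of all retina counts (SD, n = 3), or 0.0187% over the 2 libraries without replicate 4. In the appendages they took 2.97 ± 1.66% (eye stalk), 2.13 ± 0.68% (cephalic) and 2.10 ± 0.081% (oral; SD, n = 3 each). Eye stalk was the least even tissue, with 1.56%, 2.56% and 4.80% in replicates 1, 2 and 3. Without the 3 most abundant genes, these shares were 1.10 ± 0.37%, 1.23 ± 0.22% and 1.28 ± 0.34% in the same order.

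**Figure D1:**
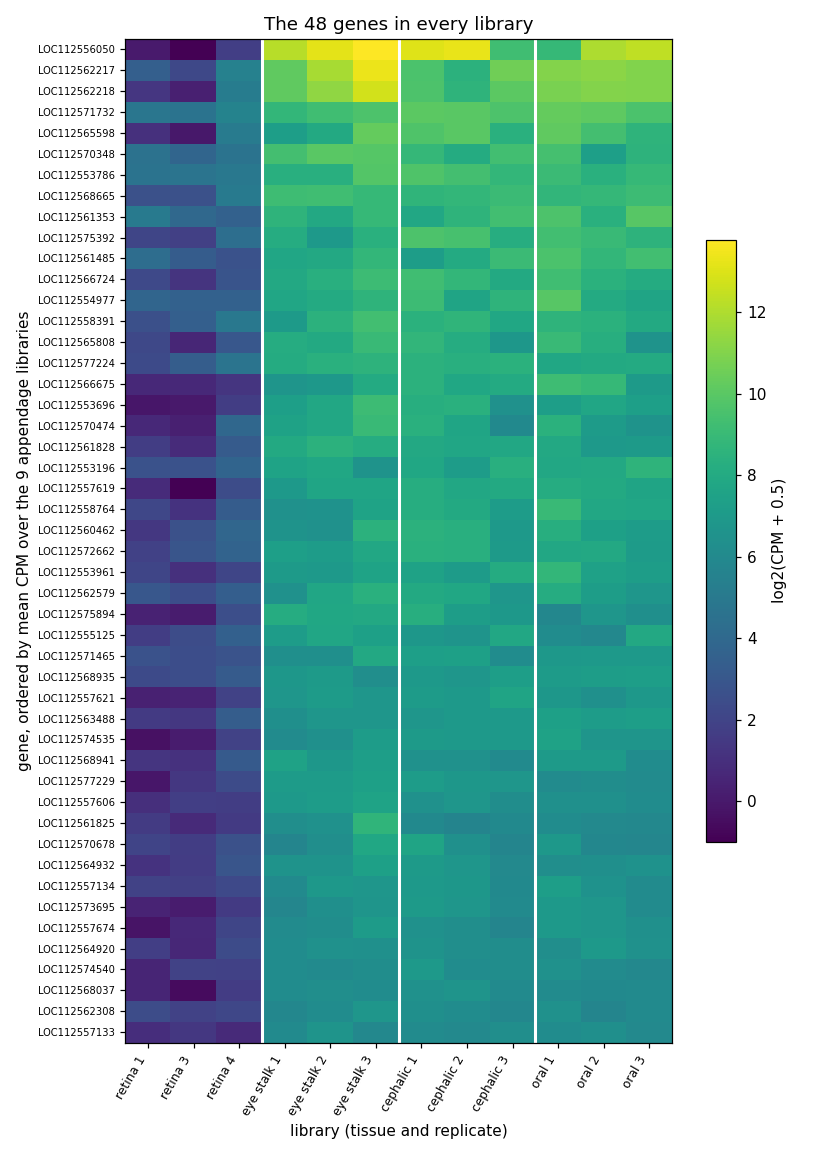
Level of each of the 48 genes (rows) in each of the 12 libraries (columns), as log2(CPM + 0.5), with white lines between tissues. Within each row the 3 retina columns are darker than the appendage columns. The top 3 rows hold the genes with appendage means of at least 1000 CPM, with 29.5-fold (LOC112556050), 28.6-fold and 18.1-fold ranges over the appendage libraries.

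The most abundant of the genes, LOC112556050, was also the lowest in retina relative to the appendages. It had 4697, 9226 and 14075 CPM in eye stalk replicates 1, 2 and 3. In cephalic tentacle it had 8648, 9953 and 597 CPM, and in oral tentacle 477, 3990.2 and 5318 CPM. The appendage libraries thus differed by 29.5-fold, and 1 library of each tentacle type was far below the others. In retina it had 0.57, 0 and 2.87 CPM in replicates 1, 3 and 4, from 18, 0 and 100 counts. Its retina mean was 0.0352% of its lowest appendage mean, that of oral tentacle.

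LOC112562217 and LOC112562218, the next in abundance, were highest in 1 eye stalk library. LOC112562217 had 1141, 3710 and 10234 CPM in eye stalk replicates 1, 2 and 3. It had 760.1, 358 and 1519.6 CPM in cephalic tentacle and 2069, 2326 and 2054 CPM in oral tentacle. LOC112562218 had 1148, 2601 and 6972 CPM in eye stalk, 794, 386 and 1048 CPM in cephalic tentacle, and 1778, 2077 and 2039.7 CPM in oral tentacle. For both genes the 3 oral libraries were close together while eye stalk and cephalic libraries were spread out. In retina LOC112562217 had 10.8, 4.12 and 44.2 CPM, and LOC112562218 had 2.02, 0.75 and 35.7 CPM, with replicate 4 far above the others in both.

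The remaining 5 of the 8 most abundant genes were more even in the appendages than the top 3. The widest range among them, 8.05-fold, was that of LOC112565598. That gene had 158, 250.2 and 1269.8 CPM in eye stalk, 823, 1036 and 332 CPM in cephalic tentacle, and 1139.5, 649.8 and 395 CPM in oral tentacle. Its retina values in replicate order were 1.55, 0.45 and 35.6 CPM, the widest gap between replicate 4 and the mean of the other 2 retina libraries in the set, at 35.7 times. Eye stalk, cephalic and oral means of LOC112571732 were 609 ± 181, 964 ± 144 and 1039 ± 234 CPM (SD, n = 3 each), against 33.1 ± 13.2 CPM in retina. LOC112570348 had 874 ± 192, 451 ± 181 and 409 ± 261 CPM in the same order and 20.4 ± 5.92 CPM in retina. LOC112553786 had 513 ± 334, 639 ± 193 and 454 ± 106 CPM and 26.8 ± 3.17 CPM in retina. LOC112568665 had 559 ± 62.4, 465 ± 74.6 and 483 ± 70.7 CPM and 14.7 ± 15.1 CPM in retina, and its 9 appendage libraries differed by 1.48-fold, the smallest range of the 48 genes.

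The retina level of the 48 genes was low but above 0 in nearly every library. The median retina mean was 3.44% of the lowest appendage mean, with quartiles of 2.19% and 4.79%, against a median of 139% for the other abundant genes. Only 3 genes lay under 1%, 17 lay between 1% and 3%, and 28 lay above 3%. All 48 had counts in retina replicates 1 and 4, and 2 were at 0 counts in replicate 3. These were LOC112556050 and LOC112557619. Under 10 counts were found for 1 gene in replicate 1, 3 genes in replicate 3 and 0 in replicate 4. Others were only somewhat higher, such as LOC112557674 with 11 counts in replicate 1 and LOC112565598 with 15 in replicate 3. The part that counting error plays in these levels was not tested.

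After LOC112556050, the lowest retina share belonged to LOC112553696. It had 0.44, 0.51 and 2.70 CPM in retina, and its eye stalk, cephalic and oral means were 319 ± 210, 241 ± 133 and 178 ± 31.1 CPM (SD, n = 3 each), so that retina held 0.684% of the oral mean. LOC112566675 had 1.14, 1.14 and 1.95 CPM in retina, 0.874% of its eye stalk mean of 161 ± 90.2 CPM. LOC112566724 and LOC112557619 stood at 1.15% and 1.17% of their eye stalk means. LOC112566724 was present in all 3 retina libraries at 4.32, 1.83 and 6.75 CPM, whereas LOC112557619 had 1.26, 0 and 4.97 CPM.

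At the other end, the genes closest to the limit of the rule kept several CPM in every retina library. LOC112553786 had 24.2, 25.8 and 30.3 CPM in retina, or 5.89% of its lowest appendage mean. LOC112562308 had 4.92, 3.28 and 3.91 CPM, or 5.79%, and LOC112568935 had 4.45, 5.17 and 8.91 CPM, or 5.66%. LOC112577224 stood at 5.47% and LOC112571732 at 5.42%. Just outside the limit were LOC112565681 at 6.252%, LOC112558957 at 6.318% and LOC112560043 at 6.326%. The limit therefore fell within a continuous range: 57 of the other abundant genes lay between 1/16 and 1/8.

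**Figure D2:**
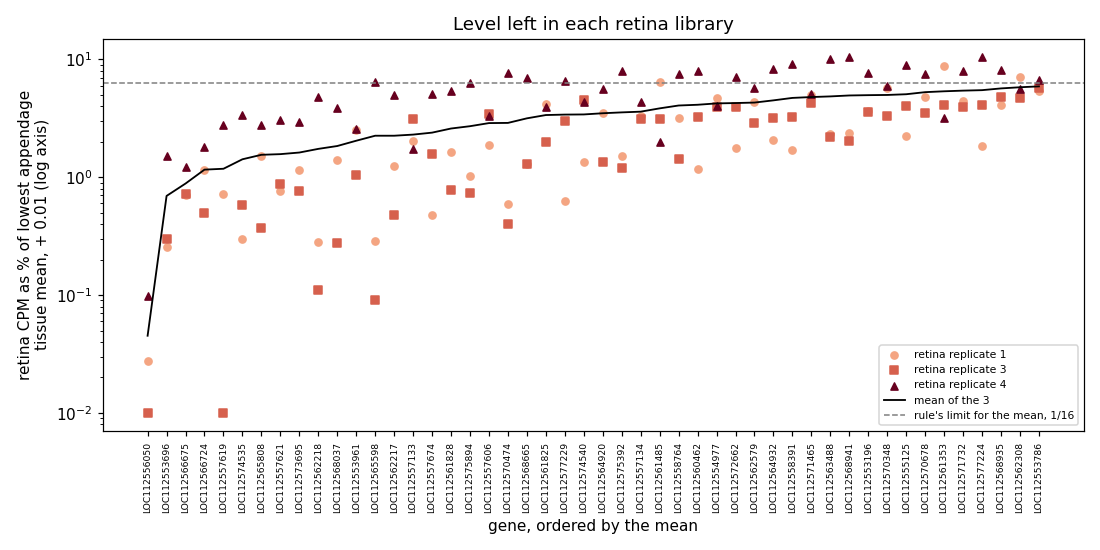
CPM in each of the 3 retina libraries as a percentage of the gene's lowest appendage tissue mean, plus 0.01, on a log axis, for the 48 genes ordered by the mean of the 3 (black line); the dashed line is the rule's limit of 6.25%. Retina replicate 4 (triangles) is the highest point for 40 of the 48 genes, and LOC112556050 at the far left is the lowest.

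The retina level of most of these genes was highest in 1 library. Replicate 4 was the highest retina library for 40 of the 48 genes (83.3%), while it was the highest for 36.0% of the other abundant genes. Among the 57 other abundant genes just above the retina limit, given above, it was the highest for 73.7%, so this was not particular to the 48. Its median ratio to the mean of replicates 1 and 3 was 3.01 over the 48 genes and 0.951 over the other abundant genes. The ratio was uneven across the set, from 0.421 to 35.7, so the genes did not keep 1 proportion between retina libraries. Replicate 4 was at least 2 times both others for 26 genes. By library, the median level was 1.80%, 2.10% and 5.48% of the lowest appendage mean in replicates 1, 3 and 4. Without replicate 4 the median retina share of the 48 genes was 2.27%, and 76 genes met the rule, 47 of them among the 48. The part that whatever sets replicate 4 apart plays in these levels was not tested.

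For 5 genes replicate 4 was below the mean of the other 2 retina libraries. They are named after their values were seen. LOC112561485 had 19.1, 9.37 and 6.01 CPM in the retina libraries numbered 1, 3 and 4, and LOC112561353 had 32.7, 15.2 and 11.7 CPM. Both were therefore highest in replicate 1. LOC112557133 had 1.39, 2.16 and 1.21 CPM, LOC112554977 had 13.5, 11.3 and 11.6 CPM, and LOC112562308, given above, was also even. In all, 10 of the 48 genes had retina libraries within 2-fold of each other, and for another 10 the highest was over 10-fold above the lowest, a library at 0 included.

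Eye stalk and tentacle levels were balanced over the set. The eye stalk mean was above the tentacle mean for 24 of the 48 genes, and the median log2 difference was 0.01, against 0.14 for the other abundant genes. The rule bounds this difference at 4-fold, and it ran from -1.19 to 1.73 on the log2 scale. The eye stalk mean lay within 1.5-fold of the tentacle mean for 56.2% of the 48 genes and for 80.7% of the other abundant genes. The 3 eye stalk libraries differed among themselves by more than this median. Their median log2 differences from the tentacle mean were -0.38, -0.03 and 0.38 in replicates 1, 2 and 3. Replicate 3 was the highest eye stalk library for 34 of the 48 genes (70.8%), against 32.1% of the other abundant genes. It was also the highest for 66.7% of the 57 other abundant genes just above the retina limit.

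The genes with the highest eye stalk level relative to tentacle were LOC112562217, LOC112561825 and LOC112562218, and all 3 had their highest value in eye stalk replicate 3. LOC112561825 had 77.1, 89.1 and 399 CPM in eye stalk replicates 1, 2 and 3. It had 62.9, 50.4 and 65.2 CPM in cephalic tentacle and 72.6, 62.1 and 60.3 CPM in oral tentacle. All 3 eye stalk libraries were above the 6 tentacle libraries, by little in replicates 1 and 2. For LOC112562217 and LOC112562218, eye stalk replicate 1 lay inside the tentacle range. Their log2 differences were 1.73 and 1.40, and that of LOC112561825 was 1.60. Without eye stalk replicate 3 the differences were 0.68, 0.47 and 0.42.

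The lowest eye stalk level relative to tentacle was that of LOC112575392, at a log2 difference of -1.19. It had 282, 126 and 334 CPM in eye stalk, 816, 725 and 299.6 CPM in cephalic tentacle, and 641, 520.1 and 376 CPM in oral tentacle. LOC112558764 followed at -1.14, with 89.5, 93.0 and 192 CPM in eye stalk, and LOC112566675 at -1.08, with 103, 116 and 265 CPM. In each of these 3 genes at least 1 eye stalk library overlapped the tentacles. Over the set, the eye stalk libraries lay above all 6 tentacle libraries for 3 genes, which were LOC112561825, LOC112561828 and LOC112557606, and below all 6 for 0 genes. The shares over all 16811 genes tested were 15.8% above and 15.9% below. For the other abundant genes they were 27.1% above and 8.88% below. The last of the 3 genes, named after its values were seen, had 122, 141 and 189 CPM in eye stalk and 71.9 to 110.5 CPM in the tentacles.

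**Figure D3:**
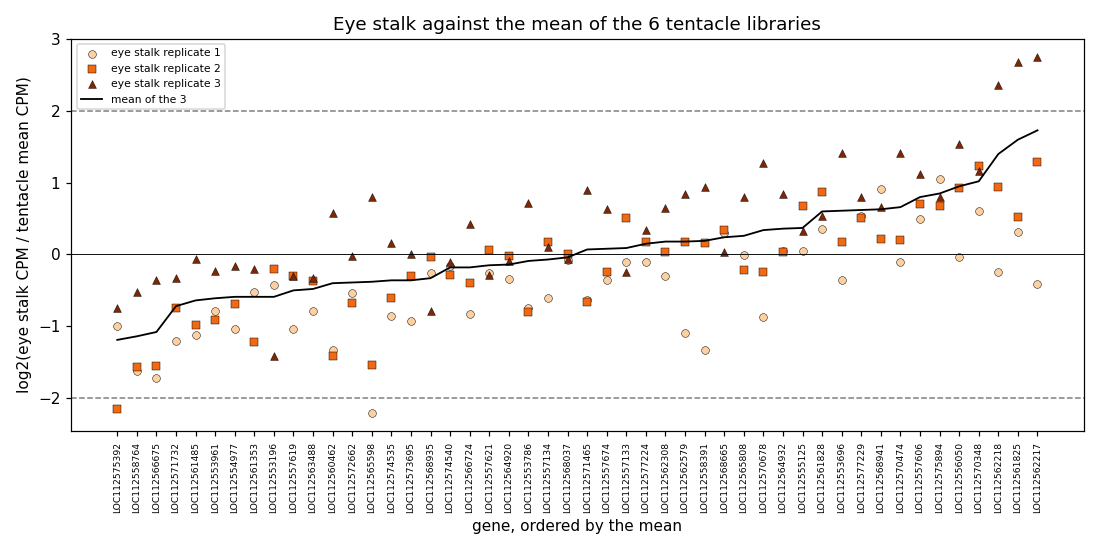
Log2 ratio of each eye stalk library's CPM to the mean CPM of the 6 tentacle libraries for the 48 genes, ordered by the ratio of the eye stalk mean (black line); the dashed lines mark the rule's 4-fold bounds, which apply to the mean. Replicate 3 (triangles) is the highest eye stalk library for 34 genes.

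The comparison of cephalic with oral tentacle was the 1 contrast between tissues that the rule did not use. None of the 48 genes was called different (0 of 48; edgeR quasi-likelihood test, Benjamini-Hochberg adjusted p under 0.05), where 0.345% of all genes tested were called. At an unadjusted p under 0.05 the count was also 0 of 48, against 9.12% of all genes, and the smallest unadjusted p among the 48 was 0.0791 in this edgeR fit. Without retina replicate 4, 4 of the 48 genes had an unadjusted p under 0.05, against 11.3% of all genes, and 0 were called (smallest edgeR adjusted p = 0.245). DESeq2 called 0 of 48 as well, against 2.08% of all genes. Cephalic was higher for 23 genes and oral for 25 by the sign of the fitted change. The median size of the log2 fold change was 0.29 for the 48 genes, 0.14 for the other abundant genes and 0.25 for all genes tested. These intervals were wide: the 95% interval extended a median of 1.14 log2 units to each side, and it stayed within 2-fold for 7 of the 48 genes. A tentacle difference of 2-fold was thus not excluded for the other 41.

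The genes with the largest fitted excess in oral tentacle were LOC112562218, LOC112562217 and LOC112561485. The cephalic minus oral log2 fold change was -1.45 ± 1.10 (SE) for LOC112562218, with a 95% interval of -3.89 to 0.99 (edgeR adjusted p = 0.801). It was -1.34 ± 0.89 for LOC112562217, with an interval of -3.31 to 0.63 (edgeR adjusted p = 0.742). The 3 cephalic libraries of both genes lay below the 3 oral libraries. LOC112561485 had 146, 267 and 546 CPM in cephalic tentacle and 769, 441 and 645 CPM in oral tentacle, which overlapped, and its log2 fold change was -0.99 ± 0.51 (edgeR adjusted p = 0.619).

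In the other direction, LOC112575894, LOC112556050 and LOC112577229 had the largest fitted excess in cephalic tentacle. LOC112575894 had 310.5, 149 and 117 CPM in cephalic tentacle and 57.7, 110.1 and 82.2 CPM in oral tentacle. These did not overlap, although cephalic replicate 3 was close to oral replicate 2, and the log2 fold change was 1.16 ± 0.66 (edgeR adjusted p = 0.667). LOC112577229 had 145, 113 and 106 CPM in cephalic tentacle and 68.4, 76.7 and 70.4 CPM in oral tentacle, a clean separation, with a log2 fold change of 0.71 ± 0.52 (edgeR adjusted p = 0.785). LOC112556050 varied more within each tentacle type than between them, and its log2 fold change of 0.94 ± 1.18 had an interval of -1.66 to 3.54 (edgeR adjusted p = 0.935). Over the set, cephalic and oral libraries did not overlap for 7 of the 48 genes (14.6%), against 21.1% of all genes tested.

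**Figure D4:**
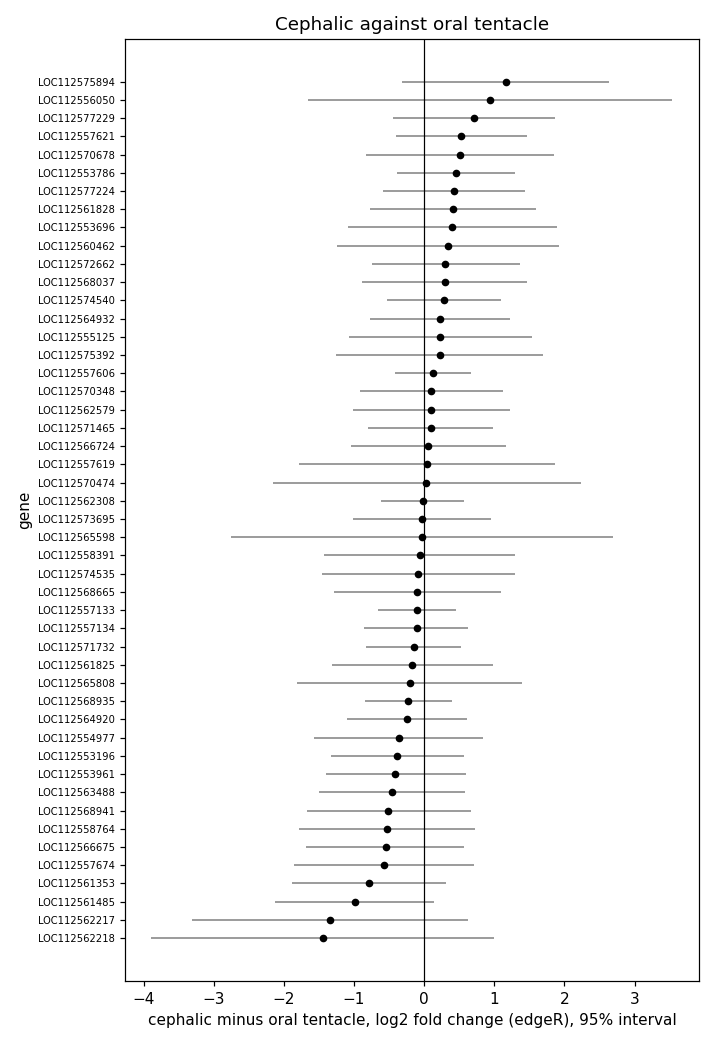
Cephalic minus oral tentacle log2 fold change for each of the 48 genes (points) with its 95% interval (lines) from the edgeR fit to all 12 libraries. Every interval crosses 0, and the values run from -1.45 for LOC112562218 to 1.16 for LOC112575894.

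The fit shares 1 estimate of spread per gene over all 4 tissues, and the 48 genes were uneven in retina. The median SD of log2(CPM + 0.5) within retina was 0.90 for the 48 genes and 0.23 for the other abundant genes. It was 0.55 for the 57 other abundant genes just above the retina limit and 0.32 for all genes tested. The other abundant genes also had a higher retina level by their definition. In the 6 tentacle libraries fitted alone, 7 of the 48 genes had an unadjusted p under 0.05, against 14.7% of all genes in that fit, and 0 were called (smallest edgeR adjusted p = 0.114). That value was reached by LOC112577229. In the same fit the edgeR adjusted p was 0.139 for LOC112562218, 0.279 for LOC112562217 and 0.292 for LOC112575894. It was 0.418 for LOC112561485 and 0.8 for LOC112556050. The adjusted p-values given above for these genes thus depend on the libraries in the fit. The replicate block, which treats same-numbered libraries as paired, gave 4 of the 48 at an unadjusted p under 0.05, against 10.1% of all genes, and 0 called (smallest edgeR adjusted p = 0.35). With the block in the tentacle libraries alone the count was 8 of the 48, against 17.2% of all genes, and 0 were called (smallest edgeR adjusted p = 0.122).

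The 48 genes also varied more between libraries of 1 appendage than the other abundant genes did. The median within-tissue SD of log2(CPM + 0.5) in eye stalk, cephalic and oral libraries was 0.47, 0.51 and 0.40 for the 48 genes, against 0.17, 0.12 and 0.17 for the other abundant genes. The 57 genes with a retina level between 1/16 and 1/8 had intermediate values of 0.35, 0.32 and 0.35. Over all genes tested they were 0.29, 0.21 and 0.27. Median appendage levels were 216 CPM for the 48 genes and 124 CPM for the other abundant genes. Neither the difference in spread nor its relation to level was tested. The highest appendage library was a median of 3.06 times the lowest over the 48 genes, and over 10 times for 3 genes, LOC112556050, LOC112562217 and LOC112562218.

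Many of the 48 genes were highest or lowest in the same libraries. Cephalic replicate 1 was the highest cephalic library for 56.2% of the 48 genes and oral replicate 1 the highest oral library for 60.4%. For the 57 other abundant genes just above the retina limit, these shares were 63.2% and 64.9%. Among the 48 genes, 20 were highest both in cephalic replicate 1 and in oral replicate 1 (41.7%), against 15.0% of the other abundant genes. Another count, of genes lowest both in cephalic replicate 3 and in oral replicate 3, gave 17 of the 48 (35.4%), against 14.0%. For libraries with unlike numbers, 27 of the 48 genes (56.2%) were highest both in retina replicate 4 and in eye stalk replicate 3, against 14.0%. Taken singly, these libraries were the highest of their tissue for 83.3% and 70.8% of the 48 genes, against 36.0% and 32.1%. For the 57 genes just above the retina limit the single shares were 73.7% and 66.7%. Such single shares were thus not limited to the 48 genes. High single shares alone raise a joint share, so these joint counts by themselves show no link between libraries. Across the 48 genes, deviations from the tissue mean had r = 0.02, 0.39 and 0.19 between same-numbered cephalic and oral libraries 1, 2 and 3. Between those of eye stalk and cephalic tentacle r was -0.22, -0.29 and -0.31. Between those of eye stalk and oral tentacle it was -0.06, 0 and -0.28. These values describe the genes, which share libraries and are not replicates. LOC112565808 had 432, 281 and 111 CPM in cephalic tentacle replicates 1, 2 and 3 and 518, 307 and 97.2 CPM in the same-numbered oral libraries. LOC112570474 had 337, 209 and 63.9 CPM in cephalic and 346, 136 and 97.9 CPM in oral tentacle. A gene that went the other way was LOC112555125, with 115, 99.4 and 233 CPM in cephalic and 73.7, 59.7 and 237 CPM in oral tentacle. These 3 examples were chosen after their values were seen. The labels do not say what a shared number means.

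Some of the 48 genes were neighbours. All 48 identifiers matched the RefSeq gene table for ASM307304v1, and 8 of them formed 4 pairs of directly adjacent genes. In all, 15 had another of the 48 within 10 genes. No such count was made for other genes, so whether these numbers are unusual was not tested. The build behind the counts is not given in the sources used here, so the table served only for gene order. In 3 of the pairs the gene spans did not overlap. In the fourth, LOC112562217 and LOC112562218, they did. Whether the counting used strand is not given in the sources used here, so reads of these genes may not be fully separated, and their values cannot be taken as independent.

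The overlapping pair had nearly the same profile in the appendages and differed in retina. The level of LOC112562218 was 68.1% to 108% of that of LOC112562217 in the 9 appendage libraries and 80.9% in retina replicate 4. In retina replicates 1 and 3 it was 18.7% and 18.2%. These are ratios of library shares and are not corrected for length. The pair LOC112561828 and LOC112561825 was in a steady proportion in most appendage libraries, with the second at 23.5% to 48.4% of the first in 8 appendage libraries, but at 138% in eye stalk replicate 3. In retina it was at 91.9% and 90.7% in replicates 1 and 3 and at 25.9% in replicate 4. In eye stalk replicate 3 LOC112561825 reached 399 CPM while LOC112561828, at 288 CPM, stayed between the 254 and 364 CPM of the other eye stalk libraries. In LOC112557619 and LOC112557621 the second was at 33.6% to 88.7% of the first in the appendages. In LOC112557133 and LOC112557134 it was at 83.0% to 210%.

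**Figure D5:**
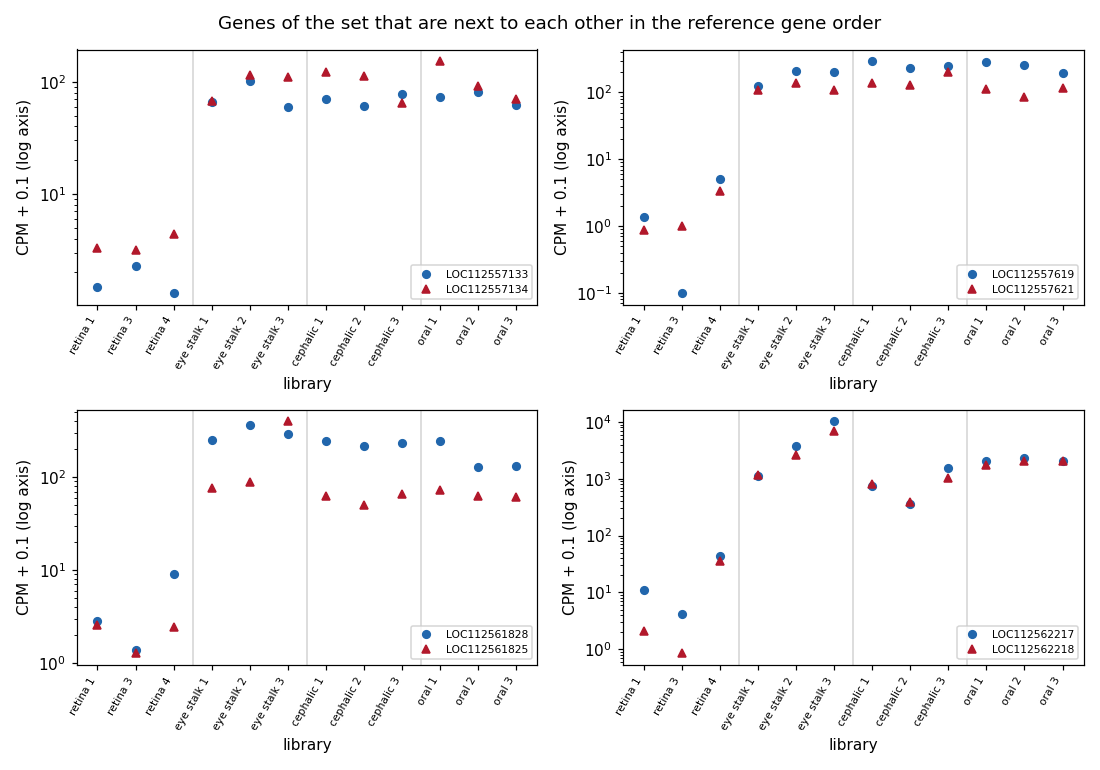
CPM plus 0.1, on a log axis, of the 4 pairs of adjacent genes in each of the 12 libraries, with vertical lines between tissues. LOC112562217 and LOC112562218 lie close together in all 9 appendage libraries and in retina replicate 4 and apart in retina replicates 1 and 3; LOC112557619 is at 0 counts in retina replicate 3.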

How the data were processed

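The authors' deposited table holds raw read counts, as whole numbers, of 21131 genes in 12 libraries. That the values are unscaled counts was inferred from their whole numbers and unequal library totals. The submitters' processing notes name STAR. Which version was run, how genes were counted, whether strand was used, and the build and annotation, is not given in the sources used here. CPM came from the deposited counts with TMM factors over all 12 libraries, and ± is the SD over libraries unless marked SE. Cephalic and oral tentacle were compared with edgeR 4.0.16 (R 4.3.3; glmQLFit and glmQLFTest, robust) after filterByExpr with a minimum count of 10, which kept 16811 genes, all 48 members included. The fit held all 12 libraries with tissue as its only term, with Benjamini-Hochberg adjustment over those 16811 genes. DESeq2 1.42.0 was an alternative. The scripts were tested on simulated data.

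Members and lists were chosen with earlier results of these data known. Named genes were the 8 most abundant members, the 5 lowest and 5 highest in retina share, the 3 extremes in each direction of the cephalic minus oral and eye stalk minus tentacle differences, 3 genes on each side of the 1/16 limit, and adjacent members. Parts of the rule that needed proteins or product descriptions were not applied, so no marker list was used and no sequence is shown. Deviations from the tissue mean were correlated across genes between libraries of the same number. Between cephalic and oral libraries 1, 2 and 3, r was 0.39, 0.30 and 0.52 over all genes tested. Over the 48 it was 0.02, 0.39 and 0.19. Between eye stalk and cephalic libraries it was -0.33, 0.03 and -0.38 over all genes tested. Between eye stalk and oral libraries it was -0.24, 0 and -0.35 over all genes tested. Unlike numbers were not compared in this way, so neither the data nor the labels settle whether a number marks a pair. The main fit had no replicate block, which was run as an alternative. In the block over all 12 libraries, eye stalk was also grouped by number, and retina replicate 4 shared its number with no other library. Within each tissue, every pair of libraries differed by more than sampling noise (chi-square of 34.0 to 666 per degree of freedom).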

Additional observations from a re-analysis of the deposited data

How the results depend on the processing

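In the 20 alternatives for the cephalic and oral comparison, 0 of the 48 genes were called in either direction. These covered scaling, filter, test, replicate block and left-out libraries. The omission of both tentacle libraries numbered 3 and that of scaling factors were chosen after seeing the data. The replicate block called 0 members, over all 12 libraries and in the tentacle libraries alone, and changed no call. All genes called numbered 58 with edgeR, 370 with DESeq2 and 39 with the replicate block. The 6 named tentacle differences kept their sign in these alternatives, but their size moved with single libraries. Without cephalic replicate 3 the log2 fold change was -1.61 for LOC112561485, and for LOC112562217 it was -1.98. LOC112561485 was at -0.65 and LOC112575894 at 0.63 without cephalic replicate 1. LOC112556050 ran from 0.42 (without oral replicate 1) and 0.46 (without cephalic replicate 2) to 1.46 and 1.48 (without oral or cephalic replicate 3), and was 2.0 without both tentacle libraries numbered 3, where LOC112562217 was at -2.02 and LOC112561485 at -1.59.

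The size of the set depended on the rule. It held 83 genes with library totals in place of TMM, 105 with a retina limit of 1/8 and 20 with 1/32, and 108 and 20 with appendage minimums of 25 and 100 CPM. Leaving out 1 library gave 44 to 76 genes. Over left-out libraries the median retina share ran from 2.27% to 4.10%, and the median eye stalk difference from -0.19 to 0.17 on the log2 scale, so its sign was not settled. Without eye stalk replicate 3 the set's share of eye stalk counts was 2.06%. Under 10 counts in a retina library were found for at most 3 of the 48 genes.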
